A study of Mus musculus with 4 samples.

Results

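Mouse chromosomes 8 and 11 held 22700 of the 170898 accessible regions found in mouse embryonic stem cells (13.3%), and these 22700 regions are described here. A region is a stretch of DNA covered by a peak in at least 1 of 4 ATAC-seq libraries. Every peak of the 4 lists on either chromosome was taken, and those sharing 1 bp or more were joined into 1 region. Chromosome 8 gave 11339 regions and chromosome 11 gave 11361, against 144183 on the other 17 autosomes. The position alone chose the regions, so peak strength, peak density and the differences between the groups were free to vary.

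ATAC-seq uses a transposase that cuts open DNA and inserts sequencing adapters, and accessible DNA then shows as peaks of coverage. The cells were of the line 2TS22C, kept in 2i serum/LIF medium. Both groups had been treated with DOX, had their endogenous Sox2 silenced and took the SOX factor from a lentivirus. The SOX2 group received SOX2, a transcription factor needed for pluripotency, and the SOX17FNV group received SOX17FNV, an engineered form of the endoderm factor SOX17. Each group had 2 libraries, called biological replicates in the titles. The labels name no separate transductions, no clones and no promoter of the transgene. The spread below is therefore the spread between these libraries, and it may be technical.

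Chromosomes 8 and 11 are of interest in cultured mouse embryonic stem cells because extra copies of them are often found after long culture. In ATAC-seq the coverage of a chromosome grows with the number of its copies as well as with how open it is. Gene-rich chromosomes also hold more promoters and enhancers, so peak density has to be read against gene density. Copy number was not measured, and its part in the values below was not tested. For scale, a ratio of 3 to 2 is 0.58 on the log2 scale.

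The promoters of a few protein-coding genes show what the regions of the 2 chromosomes look like. The sequences are those RefSeq gives for GRCm38.p6, from 250 bases before to 50 after a gene start, read 5′ to 3′ on the strand of the gene. Of the protein-coding genes, 723 of 1043 on chromosome 8 and 1271 of 1609 on chromosome 11 had such a window. Capitals mark the GC box GGGCGG, the CCAAT box CCAAT, the octamer ATGCAAAT bound by OCT4 and the SOX core ATTGT, each searched on both strands. The SOX core and the CCAAT box read on the other strand both begin with ATTG and cannot match from the same base, though matches may overlap in part. A match is only a run of letters. Ell (chr8:70539425-70539724, plus strand), which encodes a transcription elongation factor, and Polg2 (chr11:106779488-106779787, minus strand), which encodes a subunit of the mitochondrial DNA polymerase, lay in 2 of the strongest regions. Zfp42 (chr8:43306960-43307259, minus strand) and Klf2 (chr8:72318812-72319111, plus strand) mark naive pluripotency. Stat3 (chr11:100939491-100939790, minus strand) carries the LIF signal, and Hmgb2 (chr8:57511593-57511892, plus strand) encodes a DNA-bending chromatin protein. Myo16 (chr8:10153661-10153960, plus strand), an unconventional myosin gene, and Snx25 (chr8:46151714-46152013, minus strand), a sorting nexin gene, are shown because theirs were the 2 windows of the set in a region that differed between the groups.
Ell: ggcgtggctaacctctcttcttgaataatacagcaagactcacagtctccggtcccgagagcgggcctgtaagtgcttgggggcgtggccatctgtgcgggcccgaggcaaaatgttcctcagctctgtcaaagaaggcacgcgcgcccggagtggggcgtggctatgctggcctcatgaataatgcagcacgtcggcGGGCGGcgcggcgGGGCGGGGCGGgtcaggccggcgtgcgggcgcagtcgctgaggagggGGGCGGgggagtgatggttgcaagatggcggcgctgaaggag
Polg2: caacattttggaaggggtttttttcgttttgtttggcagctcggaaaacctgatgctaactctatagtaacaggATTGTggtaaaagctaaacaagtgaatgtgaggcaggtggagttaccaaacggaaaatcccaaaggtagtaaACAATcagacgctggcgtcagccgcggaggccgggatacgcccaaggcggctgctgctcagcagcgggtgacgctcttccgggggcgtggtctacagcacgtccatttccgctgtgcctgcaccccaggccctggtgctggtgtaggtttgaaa
Zfp42: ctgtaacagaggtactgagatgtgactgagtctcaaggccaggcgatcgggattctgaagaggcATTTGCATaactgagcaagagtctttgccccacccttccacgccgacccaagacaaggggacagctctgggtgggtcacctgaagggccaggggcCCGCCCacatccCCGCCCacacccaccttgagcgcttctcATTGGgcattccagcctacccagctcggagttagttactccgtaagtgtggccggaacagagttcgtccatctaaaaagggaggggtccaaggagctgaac
Klf2: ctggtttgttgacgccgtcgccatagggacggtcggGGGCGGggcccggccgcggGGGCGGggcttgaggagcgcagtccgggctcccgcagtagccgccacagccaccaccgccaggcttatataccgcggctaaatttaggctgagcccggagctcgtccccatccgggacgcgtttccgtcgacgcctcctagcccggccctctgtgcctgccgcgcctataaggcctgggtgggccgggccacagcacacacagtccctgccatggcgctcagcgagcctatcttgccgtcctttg
Stat3: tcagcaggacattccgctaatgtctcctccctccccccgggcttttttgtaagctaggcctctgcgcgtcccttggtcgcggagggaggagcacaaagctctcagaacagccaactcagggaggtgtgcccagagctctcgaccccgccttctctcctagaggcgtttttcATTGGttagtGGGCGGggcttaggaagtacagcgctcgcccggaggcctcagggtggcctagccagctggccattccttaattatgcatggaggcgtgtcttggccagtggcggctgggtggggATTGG
Hmgb2: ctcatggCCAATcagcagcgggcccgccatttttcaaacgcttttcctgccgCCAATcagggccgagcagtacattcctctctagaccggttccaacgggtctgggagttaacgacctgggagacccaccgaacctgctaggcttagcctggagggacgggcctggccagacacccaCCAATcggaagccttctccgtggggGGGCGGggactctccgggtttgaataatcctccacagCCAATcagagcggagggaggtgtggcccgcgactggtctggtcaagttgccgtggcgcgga
Myo16: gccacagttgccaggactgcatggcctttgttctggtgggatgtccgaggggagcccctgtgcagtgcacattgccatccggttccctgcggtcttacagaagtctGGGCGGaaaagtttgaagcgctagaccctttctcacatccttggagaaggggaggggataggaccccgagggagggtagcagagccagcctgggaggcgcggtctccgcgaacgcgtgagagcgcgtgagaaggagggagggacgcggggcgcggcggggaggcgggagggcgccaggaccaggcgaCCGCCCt
Snx25: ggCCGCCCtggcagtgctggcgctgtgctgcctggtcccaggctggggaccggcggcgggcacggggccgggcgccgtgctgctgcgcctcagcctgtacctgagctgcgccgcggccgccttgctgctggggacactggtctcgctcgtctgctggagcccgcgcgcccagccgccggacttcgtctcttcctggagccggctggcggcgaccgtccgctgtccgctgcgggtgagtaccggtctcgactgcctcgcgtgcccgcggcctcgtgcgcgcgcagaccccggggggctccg

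In these windows Ell held 4 matches of the GC box, Zfp42 held 1 octamer, and Hmgb2 held 4 CCAAT boxes. Polg2 held 2 matches of the SOX core and no GC box. Over windows in regions called in all 4 libraries, a GC box was present in 68.0% of 585 on chromosome 8 and in 69.9% of 990 on chromosome 11, and in 67.4% of 10389 on the other 17 autosomes. Windows without a region held it less, at 11.5%, 13.2% and 12%. The SOX core was found in 19.3%, 17.8% and 18.1% of the windows in shared regions and in 34.6%, 38.6% and 42.8% of those without a region. The CCAAT box was found in 40.8%, 37.7% and 38.0% of all windows, and the octamer in 2.54%, 0.769% and 1.71%. Over all 20063 autosomal windows the shares were 47.0% for the GC box, 38.1% for the CCAAT box, 26.8% for the SOX core and 1.67% for the octamer.

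The 4 lists held 120341 and 92851 peaks in SOX17FNV replicates 1 and 2 and 123214 and 96500 in SOX2 replicates 1 and 2. All values by library below follow this order. Between 13.1% and 13.4% of each list lay on chromosomes 8 and 11. The files give no read totals. The lowest local background of a list, which grows with depth, was 3.91, 3.27, 4.17 and 5.02, and the lowest pileup of a called summit was 11, 10, 12 and 13 fragments. All 7 stem cell markers (Pou5f1, Nanog, Zfp42, Klf2, Esrrb, Dppa4 and Tdgf1) had a peak within 1 kb of a gene end in every library. Of 6 fibroblast markers, 4 had one in every library, and Col3a1 and Postn had none in any. Of 4 endoderm markers, 3 had one in every library and Gata4 had none, and of 3 endothelial markers, 2 had one and Cdh5 had none. On chromosome 8, chromosome 11 and the other 17 autosomes, between 64.2% and 74.9% of protein-coding genes had a gene end called in every library. These ends therefore do not tell the labelled cell type from the others. A peak at a gene end does not show that the gene is transcribed.

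Chromosomes 8 and 11 carried the most peaks per Mb of all 19 autosomes in every library. Chromosome 8 had 61.6, 48.5, 62.1 and 50.5 peaks per Mb and ranked second in each library. Chromosome 11 had 68.6, 53.0, 70.2 and 54.2 and ranked first. The other 17 autosomes ranged from 37.2 to 57.2, 29.1 to 46.0, 39.0 to 57.9 and 31.3 to 44.8, so neither chromosome overlapped them in any library.

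The 2 chromosomes differ in gene content. Chromosome 11 is gene-dense, with 13.5 protein-coding genes per Mb and rank 2 of 19, while chromosome 8 lies in the middle with 8.26 and rank 9. A straight line of peaks per Mb on genes per Mb was fitted over the other 17 autosomes in each library, where the correlation between the 2 was 0.60, 0.56, 0.70 and 0.73 across chromosomes of one library. Chromosome 8 held 1.3, 1.33, 1.29 and 1.34 times the peaks the line gave, and ranked first in all 4 libraries. The mean log2 ratio was 0.39 ± 0.025 (SD, n = 4). Chromosome 11 held 1.24, 1.24, 1.23 and 1.21 times the peaks the line gave, with a mean log2 ratio of 0.30 ± 0.015 (SD, n = 4) and rank 3, 3, 2 and 2. Chromosome 14 stood at 1.26 and 1.31 with SOX17FNV and at 0.861 and 0.866 with SOX2. Without it, the next highest was chromosome 5, at 1.13, 1.11, 1.14 and 1.09. These ratios describe 1 chromosome each, and no test over chromosomes was made.

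**Figure D1:**
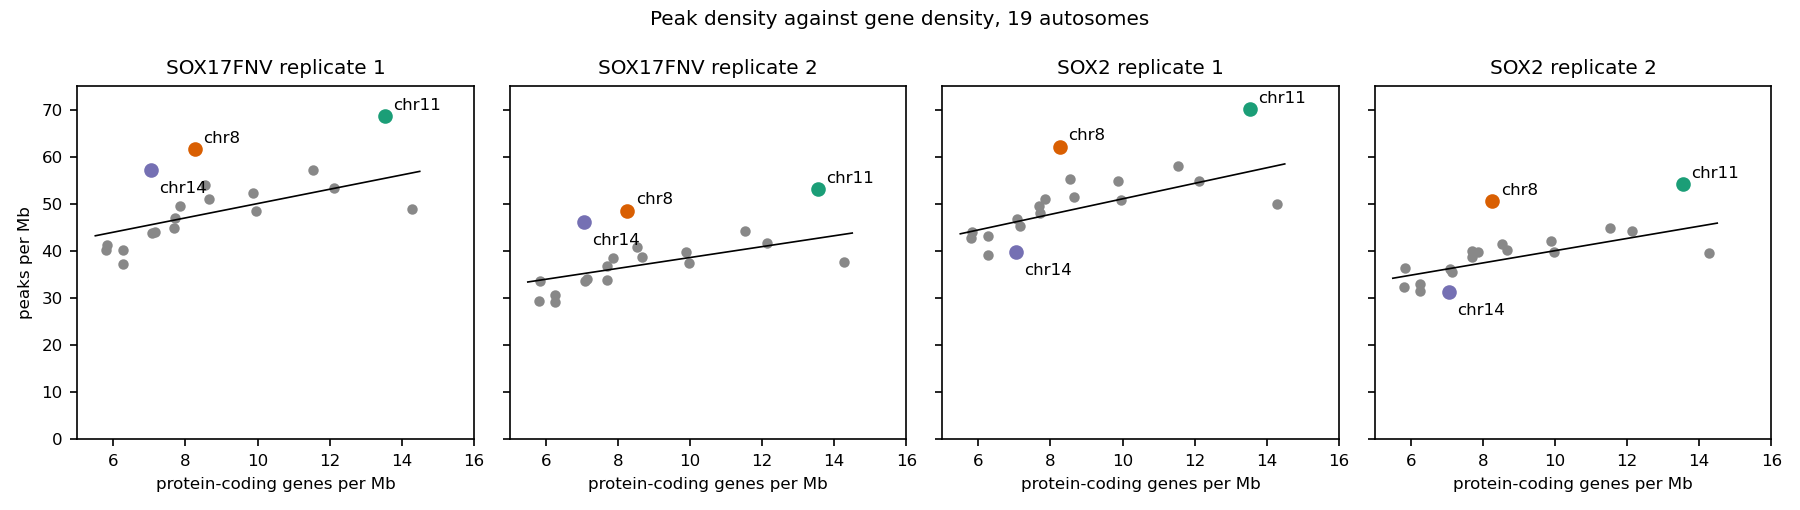
Peaks per Mb against protein-coding genes per Mb for the 19 autosomes, 1 panel for each library, with the line fitted over the 17 autosomes other than 8 and 11. Chromosomes 8 and 11 lie above the line in all 4 panels, and chromosome 14 lies above it in the SOX17FNV panels and below it in the SOX2 panels.

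Counted per gene, the order of the 2 chromosomes was turned. Chromosome 8 had 7.46, 5.87, 7.52 and 6.11 peaks per protein-coding gene and ranked second of 19. Chromosome 11 had 5.07, 3.92, 5.18 and 4.0 and ranked 15 in every library.

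Windows of 1 Mb that held like numbers of genes gave the same order on a finer scale. Weighted by the gene counts of its own windows, chromosome 8 held 1.34, 1.37, 1.33 and 1.38 times the peaks of such windows on the other 17 autosomes, a mean of 1.36 ± 0.024 (SD, n = 4). Chromosome 11 held 1.17, 1.17, 1.19 and 1.17 times as many, a mean of 1.18 ± 0.011 (SD, n = 4). In windows with 5 to 9 genes, the 31 windows of chromosome 8 averaged 79.8, 61.4, 80.5 and 65.5 peaks, against 53.2, 40.8, 55.3 and 43.1 in 529 windows of the other autosomes. On chromosome 8 the ratio was above 1 at every gene count, with means of 1.34 without genes, 1.40 at 1 to 4, 1.50 at 5 to 9, 1.20 at 10 to 19 and 1.33 at 20 or more. The ratio in its 18 windows without genes ranged from 1.14 to 1.74 between libraries. On chromosome 11 the ratio was higher at higher gene counts, from 0.842 in 9 windows without genes to 0.95, 1.12, 1.20 and 1.25. Its gene-poor windows therefore held no excess of peaks, and its gene-rich windows did.

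Chromosome 8 had a larger share of regions far from genes than chromosome 11. Of the chromosome 8 regions 10.8% lay at a gene end, that is, no more than 1 kb from the start or end of a protein-coding gene, 47.6% lay inside a gene, 24.5% outside but within 50 kb, and 17% farther away. On chromosome 11 these shares were 16.2%, 47.8%, 27.0% and 8.98%, and on the other autosomes 12.6%, 47.4%, 26.2% and 13.7%. Per Mb, chromosome 8 had 15.3 regions farther than 50 kb from any gene and chromosome 11 had 8.58, against 9.19 on the other autosomes. Inside genes the densities were 42.8 and 45.7 per Mb against 31.7. The median width of a region was 427 bp on chromosome 8, 460 bp on chromosome 11 and 444 bp elsewhere. The regions called in all 4 libraries made up 32.7% of chromosome 8 (3704), 35.6% of chromosome 11 (4050) and 33.8% of the other autosomes. Of the protein-coding genes, 74.9% on chromosome 8 and 70.0% on chromosome 11 had a gene end called in all 4 libraries, against 64.2% on the other 17 autosomes.

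Peak strength was read as the summit pileup, the number of fragments over the highest point of a peak. It was recovered from the fold enrichment and p-value that the authors' peak caller wrote for each peak. In the regions called in all 4 libraries the median pileup on chromosome 8 was 36, 28, 37 and 31, against 33, 24, 34 and 28 on the other 17 autosomes. On chromosome 11 it was 35, 26, 37 and 29. Both lay above the pooled median of the other 17 in all 4 libraries, but not above each of them: chromosome 7 had the same medians as chromosome 11, and chromosome 14 had 37.5 and 28 in the SOX17FNV libraries. On the log2 scale chromosome 8 was higher by 0.13, 0.22, 0.12 and 0.15, and chromosome 11 by 0.085, 0.12, 0.12 and 0.051. After the value expected from gene density was taken off, chromosome 8 kept 0.16 ± 0.047 (SD, n = 4), and chromosome 11 kept 0.020 ± 0.015 (SD, n = 4). Measured by fold enrichment, the direction turned: chromosome 8 was lower than the other autosomes by a log2 value of -0.13, -0.11, -0.10 and -0.11, the lowest of the 19, and chromosome 11 by -0.057, -0.042, -0.062 and -0.061. Fold enrichment divides the pileup by the local background, and that background was higher on both chromosomes.

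The local background of a peak is the coverage that the peak caller took as chance level around the summit. It is at least the genome-wide level and is raised by reads in the surrounding DNA, those of neighbouring peaks included, so it is not independent of peak density. In the shared regions its median on chromosome 8 was 7.76, 6.13, 8.01 and 8.55 fragments, which was 1.26, 1.29, 1.20 and 1.27 times that of the other autosomes. The mean log2 difference was 0.33 ± 0.045 (SD, n = 4). The median on chromosome 11 was 6.93, 5.34, 7.64 and 7.64 fragments, with a mean log2 difference of 0.18 ± 0.012 (SD, n = 4). After gene density was taken off, 0.34 ± 0.042 remained on chromosome 8 and 0.043 ± 0.011 on chromosome 11 (SD, n = 4). Chromosome 14 stood at 0.30 and 0.38 with SOX17FNV and at -0.21 and -0.20 with SOX2. The next autosome, chromosome 7, stood at 0.14, 0.13, 0.17 and 0.16.

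The share of peaks whose background was at the lowest level of the list was lower on both chromosomes than elsewhere. It was 19.9%, 16.2%, 22% and 21.3% on chromosome 8 and 20.3%, 17.8%, 19.3% and 19.5% on chromosome 11. On the other autosomes it was 30.1%, 27.5%, 30.1% and 31.7%. On chromosome 8 the background difference was 0.44 ± 0.052 at gene ends, 0.36 ± 0.055 inside genes, 0.29 ± 0.053 within 50 kb and 0.14 ± 0.089 farther away (log2, SD, n = 4). On chromosome 11 it was 0.12 ± 0.0067, 0.16 ± 0.019, 0.12 ± 0.014 and 0.11 ± 0.054. The summit pileup of the chromosome 8 regions farther than 50 kb from a gene did not exceed that of like regions elsewhere, at -0.013 ± 0.025. At gene ends of chromosome 8 it was higher by 0.24 ± 0.037.

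**Figure D2:**
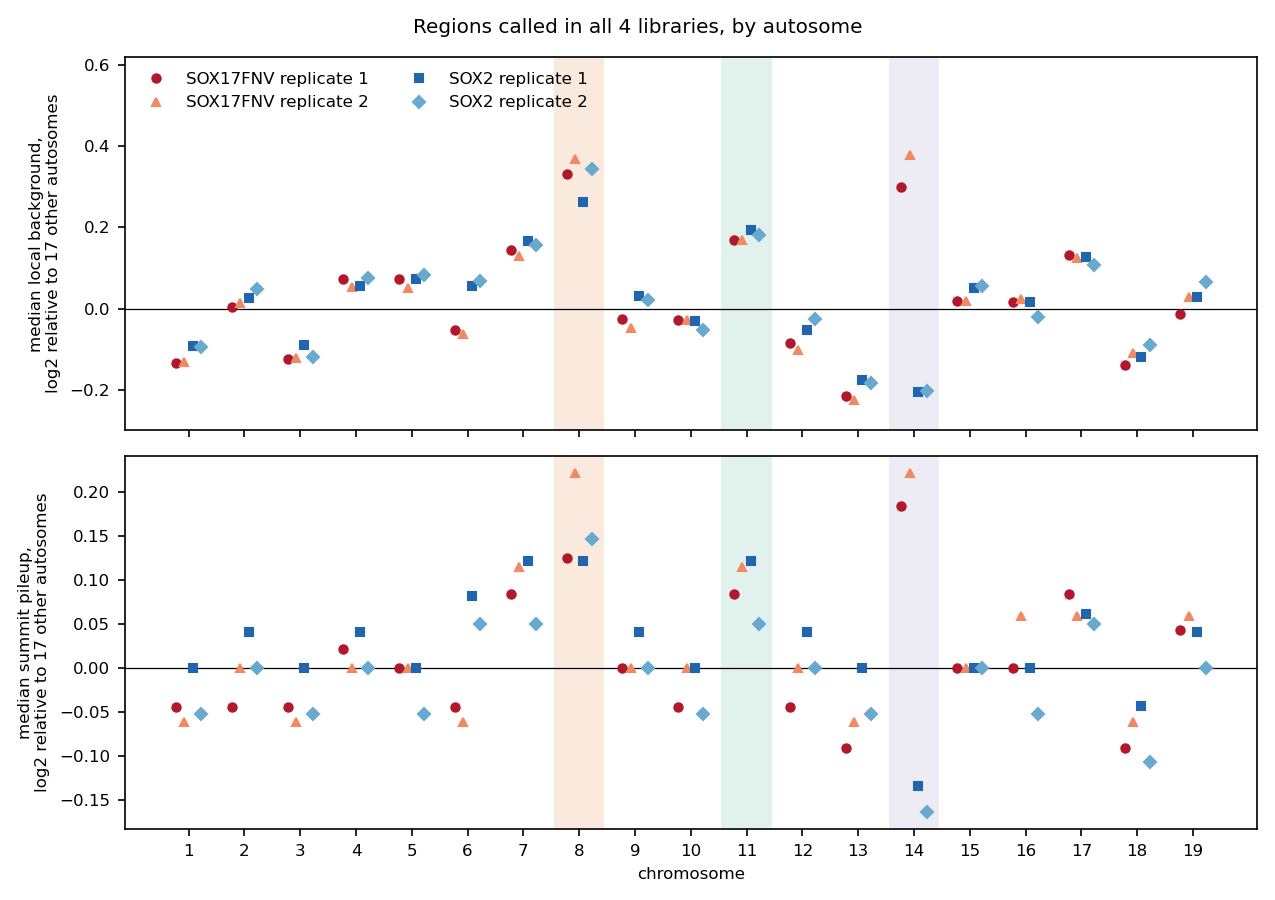
Median local background (top) and median summit pileup (bottom) of the regions called in all 4 libraries, by autosome, as the log2 ratio to the 17 autosomes other than 8 and 11, with 1 point for each library. The 4 points of chromosome 8 and those of chromosome 11 lie above 0 in both panels, and those of chromosome 14 split by group.

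Along the chromosomes the excess was broad but not even. In 10 Mb stretches, the mean background difference on chromosome 8 was above 0 in 11 of 13 stretches and ranged from -0.35 to 0.66 (log2). Peak density relative to windows of like gene count was above 1 in 12 of 13, from 0.70 to 1.61. The stretch from 50 to 60 Mb was the exception, with 0.675, 0.745, 0.632 and 0.749 times the peaks of like windows and 34 protein-coding genes. The highest background lay at 70 to 80 Mb, at 0.68, 0.70, 0.65 and 0.63, where Ell, Mast3, Jund and Klf2 lie. On chromosome 11 the background was above 0 in 10 of 13 stretches, from -0.20 to 0.53, and the density ratio was above 1 in 11 of 13, from 0.83 to 1.64. Its lowest density lay at 40 to 50 Mb and its highest in the last stretch. Over the 207 stretches of the other autosomes without chromosome 14, the background was above 0 in 35.7% and the density ratio above 1 in 48.8%. Their background ranged from -0.57 to 0.56, so single stretches elsewhere reached values as high as most of those on chromosome 8.

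**Figure D3:**
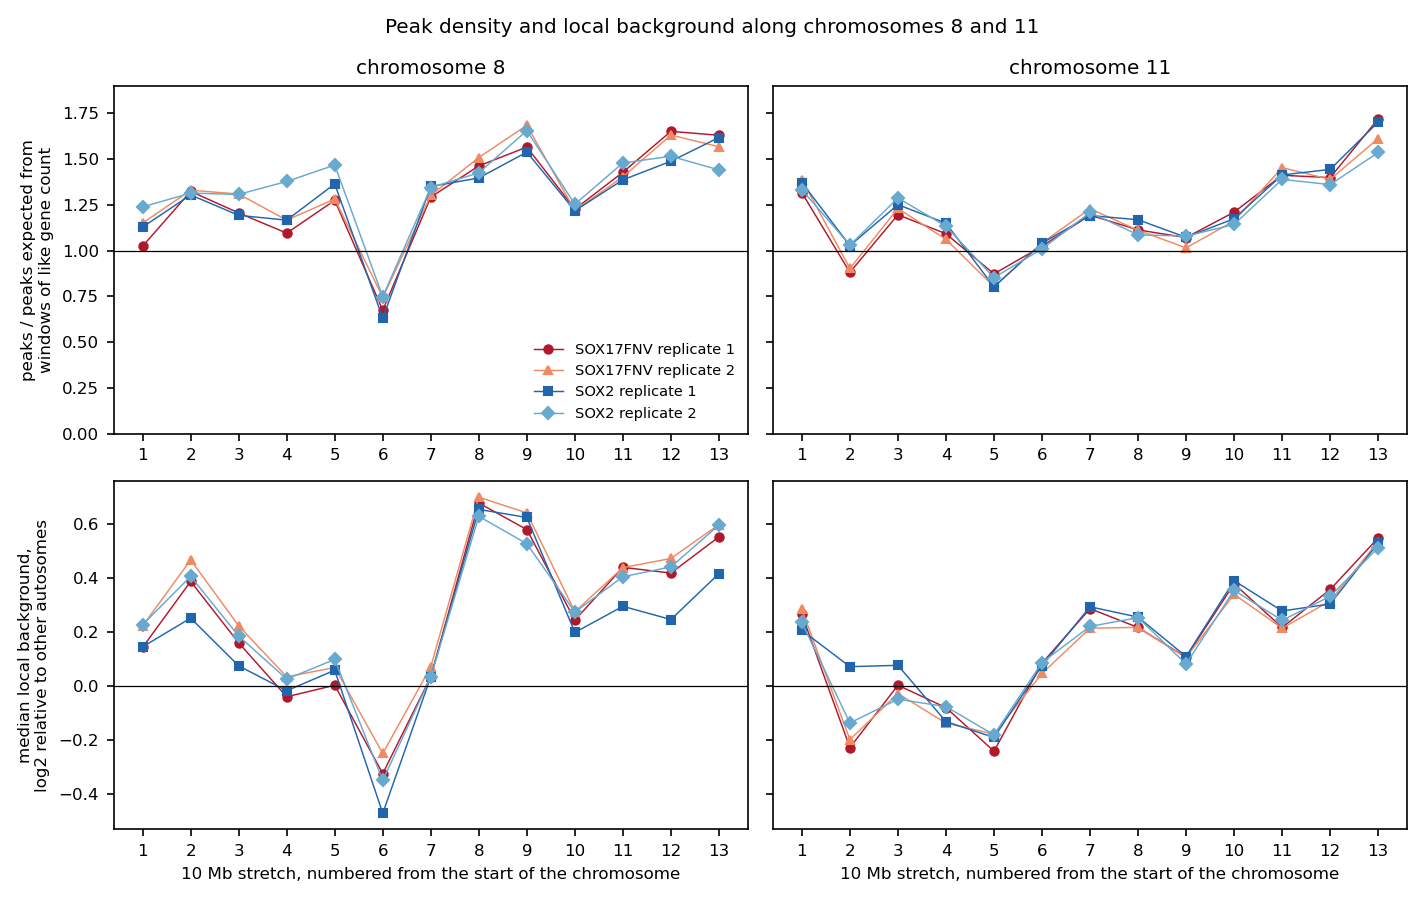
Peaks relative to windows of like gene count (top) and median local background on the log2 scale (bottom) for 10 Mb stretches numbered from the start of chromosome 8 (left) and chromosome 11 (right), with 1 line for each library. The 4 libraries follow the same course, with a low sixth stretch on chromosome 8 and the highest density of chromosome 11 in its last stretch.

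The SOX17FNV and SOX2 libraries were compared next, which asks whether either chromosome differs between cells kept by the 2 factors. The median pileup of chromosome 8 relative to the other autosomes was 0.17 ± 0.068 in the SOX17FNV libraries and 0.13 ± 0.018 in the SOX2 libraries (log2, SD, n = 2 each). The groups overlapped, with a difference of 0.040 (exact permutation test over libraries, two-sided, p = 0.667). For chromosome 11 the means were 0.10 ± 0.022 and 0.086 ± 0.050, a difference of 0.014 (exact permutation test, p = 1), and the groups again overlapped. With 2 libraries against 2, p cannot go below 0.33. The local background differed by 0.047 on chromosome 8 (exact permutation p = 0.667) and by -0.018 on chromosome 11, where the groups did not overlap (exact permutation p = 0.33). That was not particular to chromosome 11. On most autosomes the groups did not overlap in background, for example on chromosomes 9 (-0.062) and 12 (-0.055). In the same test chromosome 14 differed by 0.35 in pileup and by 0.54 in background, without overlap of the groups (exact permutation p = 0.33 for each). The log2 ratio of peak density to that expected from gene density was 0.39 in both groups on chromosome 8, and 0.31 and 0.29 on chromosome 11. By 10 Mb stretch the median difference ran from -0.032 to 0.14 on chromosome 8 and from -0.11 to 0.13 on chromosome 11. On chromosome 14 it ran from 0.18 to 0.51.

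A group-specific region was called in both libraries of one group and in neither of the other. On chromosome 8, 316 regions were SOX17FNV-only (2.79%) and 451 were SOX2-only (3.98%). On chromosome 11 there were 309 (2.72%) and 428 (3.77%). Over all autosomes 3.09% of regions were SOX17FNV-only and 4.01% were SOX2-only, and without chromosomes 8, 11 and 14 it was 2.78% and 4.19%. Both shares lay near this background on both chromosomes. Of the group-specific regions, 41.2% were SOX17FNV-only on chromosome 8 (95% interval 37.7% to 44.8%, exact Clopper-Pearson) and 41.9% on chromosome 11 (38.3% to 45.6%). The other 17 autosomes gave 43.8%, and 39.8% without chromosome 14, which had 777 SOX17FNV-only and 141 SOX2-only regions. The intervals cover counting error only. With only peaks of -log10 q of at least 5, the counts were 186 and 162 on chromosome 8 and 200 and 142 on chromosome 11, so the larger group changed. It changed on the other 17 autosomes too, from 4532 and 5812 to 2408 and 2271, though not without chromosome 14 (2067 and 2199).

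**Figure D4:**
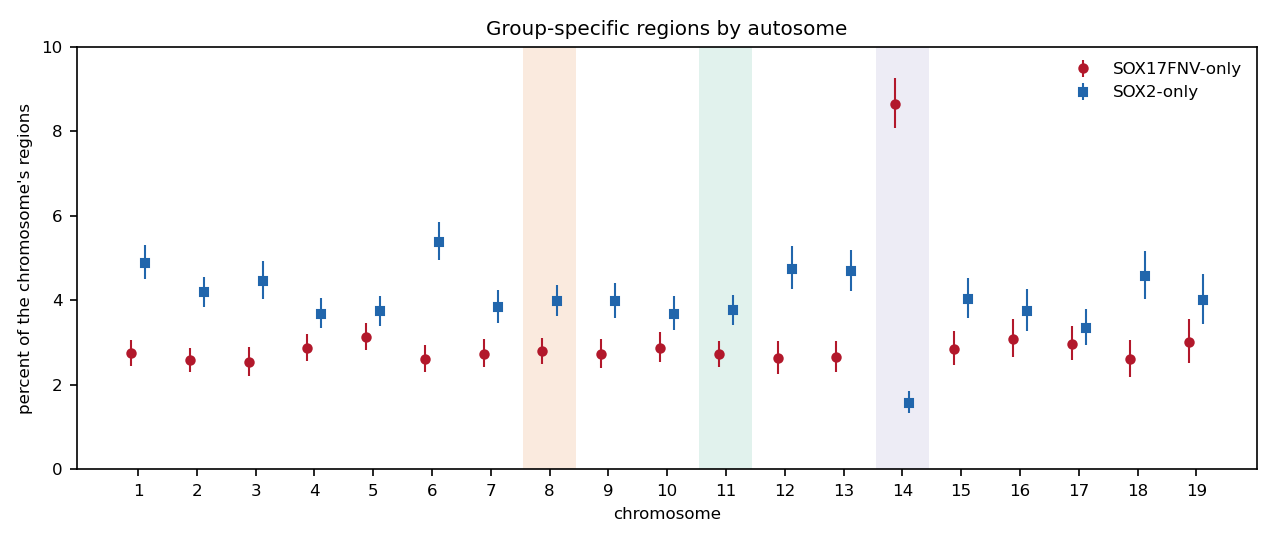
Percent of the regions of each autosome that were SOX17FNV-only (circles) or SOX2-only (squares), with exact 95% binomial intervals as bars. Chromosomes 8 and 11 lie among the other autosomes at 2.79% and 2.72% SOX17FNV-only, and chromosome 14 stands apart at 8.65%.

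The group-specific regions with the highest pileups lay mostly outside promoters. On chromosome 8 the strongest SOX17FNV-only region (chr8:70696385-70696677) lay 1062 bp from Jund, an AP-1 transcription factor gene, with pileups of 65 and 48. Another, 27324 bp from Purg, which encodes a nucleic acid-binding protein, reached 44 and 39. A region farther than 50 kb from any gene reached 47 and 46. Jund lies where chromosome 8 has its highest background, and the local background of its region was 30.8 and 23.7 fragments.

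Among the SOX2-only regions of chromosome 8, one lay 2310 bp from Klf2 (chr8:72316163-72316752) and had pileups of 65 and 45. The Klf2 gene end itself was called in all 4 libraries at 85, 66, 72 and 74. A region 5325 bp from Adrb3, a beta-adrenergic receptor gene, had 53 and 50, and a region inside Znrf1, a ubiquitin ligase gene, had 50 and 51. On chromosome 11 the strongest SOX2-only regions lay inside Spred2, an inhibitor of Ras signalling (61 and 54), 2462 bp from Notum, a Wnt-inactivating enzyme (55 and 56), and inside Jup, which encodes plakoglobin (54 and 54). The strongest SOX17FNV-only regions there were weaker. They lay 49246 bp from Tnrc6c, a gene of microRNA silencing (41 and 39), 1672 bp from Slc1a4, an amino acid transporter gene (41 and 33), and far from any gene (44 and 36). A region that is not called in a library may still hold reads below the threshold there, and their number is not known.

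Some genes gathered several group-specific regions, and those with the highest counts were picked. Over all autosomes 4.01% of regions were SOX2-only and 3.09% were SOX17FNV-only. Cobl on chromosome 11, an actin nucleator gene, had 16 SOX2-only and 0 SOX17FNV-only regions among 81. It lies in the stretch from 10 to 20 Mb, which had 34 SOX2-only and 7 SOX17FNV-only regions and a median difference of -0.11. The 16 of Cobl are counted among these 34. In that stretch the SOX2 libraries had pileups higher by 0.27 and 0.19 than the other autosomes, and the SOX17FNV libraries stood at -0.090 and 0.059. Slit3, a guidance ligand gene, had 8 SOX2-only and 2 SOX17FNV-only regions of 70, and Tns3, a focal adhesion gene, had 6 and 0 of 67. On chromosome 8 Wwox, an oxidoreductase gene, had 7 SOX2-only and 1 SOX17FNV-only region of 94, Pard3, a cell polarity gene, had 7 and 4 of 102, and Prag1, a pseudokinase gene, had 6 and 0 of 20.

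In the other direction, Cdh13 on chromosome 8, which encodes T-cadherin, had 12 SOX17FNV-only and 2 SOX2-only regions among 105 over a span of 1185 kb. N4bp1 had 5 and 2 of 42, and Cntnap4, a neuronal adhesion gene, had 4 and 0 of 26. On chromosome 11 Sgcd, a sarcoglycan gene, had 4 and 1 of 15, Rptor, a subunit of mTORC1, had 4 and 1 of 59, and Acsf2, an acyl-CoA synthetase gene, had 3 and 1 of 13. These genes are the 3 with the highest counts in each direction on each chromosome, ties going to the gene with fewer regions. Ties included Pard3 and Zfhx3 with Cntnap4 at 4, Lonrf1 and Zfhx3 with Prag1 at 6, and Lif, Mgat5b, Pafah1b1 and Slc1a4 with Acsf2 at 3. Long genes hold more regions, and the counts stand beside 3.09% SOX17FNV-only and 4.01% SOX2-only over all autosomal regions.

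Single regions were compared by pileup over the 56427 autosomal regions called in all 4 libraries, with limma on log2 values centred on each library's median and Benjamini-Hochberg adjustment over all of them. Of 3704 regions on chromosome 8, 43 were higher in the SOX17FNV libraries (1.16%) and 36 were higher in the SOX2 libraries (0.972%). Of 4050 on chromosome 11, 16 were higher in the SOX17FNV libraries (0.395%) and 43 were higher in the SOX2 libraries (1.06%). Over all autosomes the shares were 0.881% and 1.13%. Chromosome 14 alone gave 212 of the 497 regions higher with SOX17FNV, and without it the shares were 0.529% and 1.16% of 53907. Against those, chromosome 8 lay above in the first direction and chromosome 11 below, and both lay somewhat below in the second. None of these gaps was tested. The median difference was 0.082 on chromosome 8 and 0.046 on chromosome 11, against 0.040 over all regions. Without either SOX17FNV library 0 regions passed on any autosome (limma). At an unadjusted p under 0.05 and without SOX17FNV replicate 1, 264 regions of chromosome 8 were higher with SOX17FNV and 132 lower (7.13% and 3.56%), 189 and 170 on chromosome 11 (4.67% and 4.20%), and 3208 and 2495 over all autosomes (5.69% and 4.42%). Without SOX17FNV replicate 2 these were 127 and 141 (3.43% and 3.81%), 121 and 155 (2.99% and 3.83%), and 2019 and 2387 (3.58% and 4.23%). Without 1 SOX2 library 1 to 7 passed on a chromosome in a direction. With fold enrichment in place of pileup, 2 regions of chromosome 8 were higher with SOX17FNV and 5 lower (0.0540% and 0.135%), and 0 and 10 on chromosome 11 (0% and 0.247%), against 33 and 143 over all autosomes (0.0585% and 0.253%).

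The called regions changed by a median of 1.88-fold upward and 1.98-fold downward with SOX17FNV on chromosome 8, and of 1.89-fold and 2.09-fold on chromosome 11. They rarely lay over the promoter windows, which cover 723 of 1043 protein-coding genes on chromosome 8 and 1271 of 1609 on chromosome 11. On chromosome 8, 2 of 79 called regions overlapped a promoter window (2.53%), against 13.1% of those tested. On chromosome 11 it was 0 of 59 against 19.9%. Of the group-specific regions, 10 of 767 on chromosome 8 (1.3%) and 2 of 737 on chromosome 11 (0.271%) overlapped one, against 1.03% over all autosomes.

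The regions that rose most with SOX17FNV on chromosome 8 lay inside Chd9 and far from genes. The Chd9 region (chr8:90892088-90892895), in the gene of a chromodomain helicase, had pileups of 72 and 36 with SOX17FNV and 36 and 16 with SOX2. Relative to each library's median, 24.4% of all tested autosomal regions were higher with SOX17FNV without overlap of the groups. The Chd9 region was among them, at 2.18 and 1.50 against 1.03 and 0.571. The log2 difference was 1.24 ± 0.23 (SE, limma adjusted p = 0.00247). A second Chd9 region also rose, from 32 and 36 to 60 and 52 (limma adjusted p = 0.00927). A region farther than 50 kb from any gene (chr8:12112126-12113400) had 47 and 42 against 19 and 21, a difference of 1.31 ± 0.23 (SE, limma adjusted p = 0.00139). Cdh13 held 4 regions that rose among 25 tested, the most of any gene on either chromosome, with limma adjusted p-values from 0.00986 to 0.0455. It is a long gene with 105 regions, and 0.881% of all tested autosomal regions rose. The region with the largest rise of its 4 had 52 and 51 against 21 and 36, a log2 difference of 1.06 (limma adjusted p = 0.00986).

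The largest falls with SOX17FNV exceeded the largest rises. The region nearest to Acsl1 (chr8:46445892-46446694), 24343 bp from this acyl-CoA synthetase gene, had pileups of 15 and 14 with SOX17FNV and 56 and 47 with SOX2, a log2 difference of -1.67 ± 0.24 (SE, limma adjusted p = 8.2e-05). A region far from genes (chr8:86393260-86394406) had 26 and 14 against 79 and 55, a difference of -1.64 ± 0.21 (SE, limma adjusted p = 3.4e-05). Inside Palld, an actin-binding protein gene, a region had 23 and 16 against 63 and 47 (limma adjusted p = 3.1e-04). In all 3, both SOX17FNV libraries lay below both SOX2 libraries, which is likely after picking large differences. The same held for 18.1% of all tested autosomal regions, relative to each library's median.

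On chromosome 11 the largest rises lay 5490 bp from Tns4, a tensin gene, 2849 bp from Sap30l, a gene of the SIN3 repressor complex, and inside Epx, a peroxidase gene. The Tns4 region had 41 and 35 against 14 and 22, a log2 difference of 1.26 ± 0.27 (SE, limma adjusted p = 0.00637). The Sap30l region had 56 and 37 against 29 and 18 (limma adjusted p = 0.00257). The largest falls lay inside Pex13, a gene of peroxisomal import, with 13 and 10 against 47 and 30, and inside Nudcd3, with 14 and 17 against 47 and 45. The Pex13 difference was -1.57 ± 0.27 and the Nudcd3 difference was -1.42 ± 0.26 (SE, limma adjusted p = 0.00101 and 0.00148). Tns3 held 2 regions that fell among 22 tested, beside 1.13% of all tested autosomal regions. One had 22 and 20 against 64 and 49, and the other had 45 and 45 against 79 and 80 (limma adjusted p = 5.4e-04 and 0.0400).

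**Figure D5:**
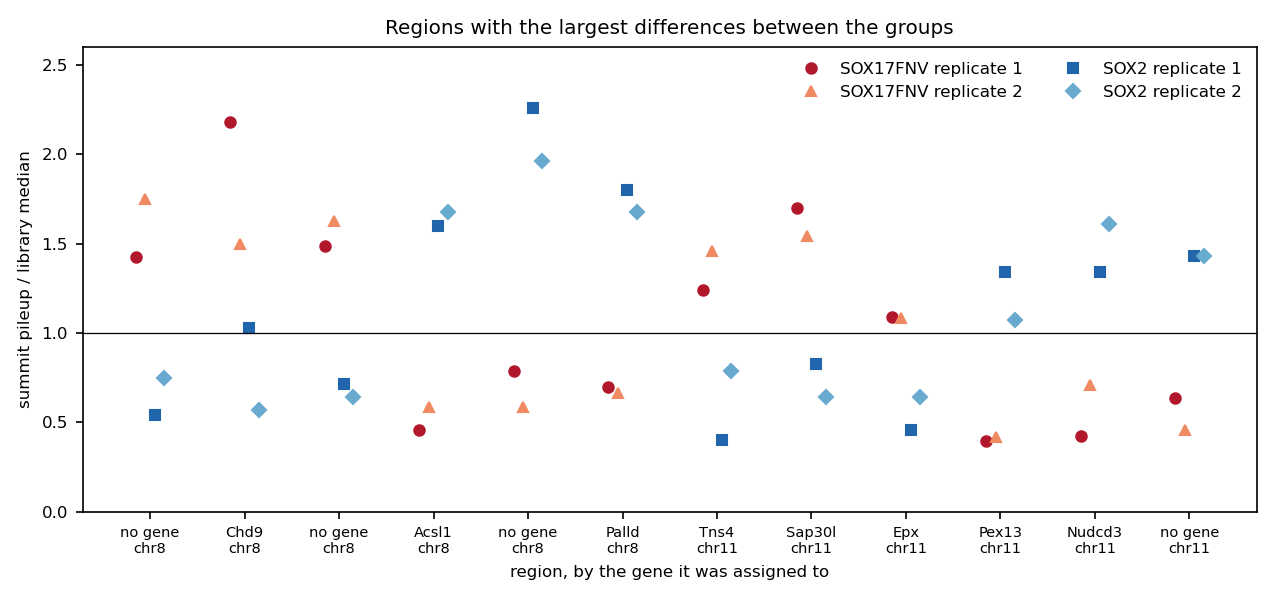
Summit pileup relative to the library median for the 12 regions of chromosomes 8 and 11 with the largest differences among those past the limma threshold, 3 in each direction on each chromosome. Points are the 4 libraries. In each region both SOX17FNV points lie on one side of both SOX2 points, which is likely after picking large differences. Over all tested autosomal regions the groups did not overlap in 24.4% with SOX17FNV higher and in 18.1% with SOX2 higher.

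At gene ends 13 regions differed, a smaller share of the called regions than of those tested. A gene end is the start or the end of a gene. Of these 13, only the regions at Myo16 and Snx25 overlapped a promoter window. On chromosome 8 gene ends gave 3 of 43 rises and 3 of 36 falls, against 852 of the 3704 regions tested. On chromosome 11 they gave 1 of 16 rises and 6 of 43 falls, against 1224 of 4050 tested. With SOX17FNV, 4 rose: at Mmp2, a matrix protease gene (45 and 33 against 22 and 18, limma adjusted p = 0.00601), at Slc7a5, an amino acid transporter gene (48 and 39 against 30 and 24), at Naxd (51 and 38 against 29 and 27) and at Nt5c3b (52 and 37 against 29 and 24). The other 9 fell. On chromosome 8 these were Myo16 (16 and 11 against 33 and 26), Asah1, which encodes acid ceramidase (26 and 17 against 53 and 37), and Snx25 (36 and 20 against 49 and 53). On chromosome 11 they were Hspa4, a heat shock protein gene (40 and 25 against 69 and 68), Ccnjl (23 and 19 against 62 and 42), Fasn, the fatty acid synthase gene (35 and 19 against 70 and 39), Gabrp (47 and 29 against 74 and 58), Foxj1, a factor of motile cilia (26 and 22 against 51 and 41), and Gm11563 (19 and 18 against 40 and 36). Mmp2 is also a gene of fibroblasts. The ends of the other fibroblast genes on these chromosomes, Col1a1 (44, 34, 36 and 36) and Cdh11 (27, 20, 37 and 23), did not pass, and the part of other cells in these values was not tested.

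None of the 10 strongest shared regions passed the test between the groups, where 0.881% and 1.13% of all regions passed in the 2 directions. The 10 were chosen for high pileup in all 4 libraries, so a region high in only 1 group could hardly be among them. On chromosome 8 they lay at Ell (108, 86, 99 and 99), at Ing1, a gene of histone mark recognition (108, 89, 103 and 92), inside Mast3, a kinase gene (99, 83, 98 and 108), inside Adgra2, an adhesion receptor gene (106, 90, 103 and 82), and 44194 bp from 9530057J20Rik (110, 86, 106 and 105). On chromosome 11 the region at Polg2 (103, 94, 100 and 106) also covers the end of Ddx5, a neighbouring RNA helicase gene. Tex14, a gene of germ cell bridges, held 2 of the strongest (103, 90, 122 and 101, and 110, 77, 105 and 113), and a region 6188 bp from Arl4d had 104, 88, 91 and 102. The strongest, inside Sfi1, a spindle pole gene, had 128, 129, 129 and 122 over a local background of 42.6, 37.7, 38.5 and 44.6 fragments. That is a fold enrichment of only 2.96, 3.36, 3.29 and 2.70. The limma adjusted p of these 10 regions ranged from 0.581 to 0.97.

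Of 13 genes of pluripotency and its signals on the 2 chromosomes, 11 had a gene end called in all 4 libraries, where 74.9% of all protein-coding genes on chromosome 8 and 70.0% on chromosome 11 had one. Of their 76 shared regions 0 passed in either direction, beside 0.881% and 1.13% of all regions, so a list of this size would hold few calls at the background share. The median difference was -0.054. Zfp42 had end pileups of 70, 68, 78 and 67, Stat3 73, 66, 75 and 67, and Smad1, a BMP signal transducer, 66, 52, 67 and 53. Lif, the gene of the cytokine in the medium, had 48, 34, 51 and 33. The end of Axin2, a Wnt target, was called in both SOX17FNV libraries (23 and 25) and in neither SOX2 library, and that of Stat5b in 1 library. The 17 shared regions of Zfp42 had a median difference of -0.33, though none passed.

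The other lists stand beside the same background. All 12 genes of cell cycle and genome stability had an end called in all 4 libraries, among them Hmgb2 (92, 73, 84 and 81), Cdt1, a licensing factor gene (82, 58, 77 and 58), Trp53 (57, 54, 59 and 58) and Birc5, a gene of chromosome segregation (71, 63, 65 and 63). Of their 26 shared regions 0 passed, with a median of 0.18. Of 11 chromatin genes 10 had an end called throughout, and 2 of 63 shared regions rose, both in Chd9. Suz12, a Polycomb subunit gene, had 56, 64, 60 and 65, and Ctcf, the insulator factor gene, had 57, 46, 56 and 48. Of 15 developmental factors 14 had an end called in all libraries, and 0 of 56 regions passed. Their values differed widely. Hand1 (23, 18, 23 and 25) and Hoxb1 (26, 14, 19 and 18) were low, while Irx5 (62, 57, 63 and 60) and Klf1 (82, 75, 70 and 74) were high. Tbx4 was called in 1 library. The 2 SOX genes, Sox1 (44, 34, 50 and 38) and Sox9 (24, 20, 35 and 28), had 0 of 12 regions past the threshold. The 7 housekeeping genes were all called throughout, among them Actg1 (103, 82, 95 and 80) and Calr, a chaperone gene (87, 81, 94 and 87), with 0 of 13 regions past the threshold. Their median difference was 0.20, so the 0.18 of the cell cycle list was not particular to it. The epithelial gene Cdh1 had 74, 67, 68 and 65 and 0 of 10, and of the endothelial genes Pecam1 had 30, 21, 20 and 20 while the end of Cdh5 was called in no library.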

How the data were processed

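Accessible chromatin was measured by ATAC-seq in 4 libraries, 2 in each group, and 1 peak list per library was deposited. Per the submitters' processing notes the tools were Bowtie2, SAMtools and MACS2 and the build was mm10. Tool versions and settings, read filters and a transposase offset are not given in these sources. The deposited lines give a fold enrichment (a ratio of summit pileup to local background), the -log10 of a p-value and of a q-value, and a score, all by the authors' peak caller, and every list kept only summits with -log10 q of at least 1.30. The names of the deposited lists carry a further tag, one for both replicates 1 and another for both replicates 2, which the labels do not explain. Peak positions are deposited in mm10 and printed counted from 1.

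Fold and p together were solved for a whole-number summit pileup and a local background, and 100% of lines of every list fitted within 0.001. The step was tested on simulated data. A peak is a distinct interval. Peaks of the 4 lists were merged where they overlapped by at least 1 bp. Gene spans came from RefSeq, GRCm38.p6, and a region went to the nearest protein-coding gene within 50 kb. The span of a chromosome ran from its first region to its last. Group differences by region used limma 3.58.1 in R 4.3.3 with a threshold of 0.05 on the adjusted p, and single values used an exact permutation test over libraries. The fit was tested on simulated data too. Other steps used Python 3.11.15, NumPy 2.4.6, pandas 2.3.3, SciPy 1.17.1 and Matplotlib 3.10.9.

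The chromosomes, gene lists, tests and alternatives were chosen with earlier results of these data known. Named on each chromosome were the 5 strongest regions called in all libraries, the 3 strongest of each group-specific kind, the 3 genes with the most of each kind, the 3 largest limma differences in each direction, the genes of the lists, and, chosen after their values were seen, all called gene ends and genes with several called regions. Alternatives were stricter peak thresholds, lists of equal length, other measures of strength, gene density and overlap, other reference chromosomes, a replicate block and leaving out each library. Peaks outside chromosomes 1 to 19, X and Y were left out. The values of some genes are not reported here.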

Additional observations from a re-analysis of the deposited data

How the results depend on the processing

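Depth is unknown without read totals, and a region absent from a list is only below that list's threshold. Local background, pileup and peak density come from the same reads and do not bear on each other as independent measures. Each chromosome is a single case, and a difference in copy number and one in accessibility cannot be told apart by peak lists. The alternatives for local background and 1 Mb windows, and those with means or with group-specific shares set against fewer chromosomes, were chosen after seeing the data.

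The direction of peak density held under every alternative run. With peaks of -log10 q of at least 5 the log2 ratio to the density expected was 0.33 on chromosome 8 and 0.28 on chromosome 11, and at a minimum of 10 it was 0.32 and 0.25. With all genes in place of protein-coding genes it was 0.36 on chromosome 11. Leaving out each library gave 0.38 to 0.40 and 0.30 to 0.31. In 1 Mb windows the ratio of chromosome 8 was 1.29 at a -log10 q of at least 5, and 1.347 to 1.365 without 1 library, and that of chromosome 11 was 1.17 to 1.18 without 1 library. The local background of chromosome 11 was 0.14 at a -log10 q of at least 5 and 0.17 to 0.19 without 1 library, and that of chromosome 8 was 0.31 to 0.35 without 1 library. Peak strength over gene density turned with fold enrichment, to -0.12 on chromosome 8 and -0.035 on chromosome 11, since fold divides by the local background. On chromosome 11 it was 0.035 away from gene ends and 0.0046 with means. Without 1 library it was 0.13 to 0.17 on chromosome 8 and 0.014 to 0.021 on chromosome 11.

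The difference in strength between the groups turned to -0.017 on chromosome 8 with fold enrichment and to -0.018 on chromosome 11 away from gene ends. Without 1 library it was 0.015 to 0.071 on chromosome 8 and -0.034 to 0.046 on chromosome 11, and it was negative there without SOX17FNV replicate 1 (-0.034) and without SOX2 replicate 1 (-0.0090). The cause was not tested. The SOX17FNV-only share minus that of the other autosomes was -2.61 percentage points on chromosome 8 and -1.89 on chromosome 11. With a -log10 q of at least 5 it turned to 1.98 and 7.02, with 186 and 162 SOX17FNV-only and SOX2-only regions on chromosome 8 and 200 and 142 on chromosome 11. Without 1 library it was -4.18 to 2.23 and -1.61 to 0.95. It turned positive on chromosome 8 without SOX17FNV replicate 1 (2.23) and replicate 2 (0.87), and on chromosome 11 without SOX17FNV replicate 1 (0.78), SOX17FNV replicate 2 (0.95) and SOX2 replicate 1 (0.60). It was also positive against a reference without chromosomes 6 and 14 (0.71 and 1.44) and, on chromosome 11, with lists of equal length (0.26), so its direction was not stable. With only 1 library of a group required, more regions qualified: 454 to 1696 SOX17FNV-only and 570 to 1804 SOX2-only on chromosome 8, and 453 to 1616 and 541 to 1866 on chromosome 11.

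Counts of single regions past the limma threshold moved most. On chromosome 8 (43 higher and 36 lower with SOX17FNV) fold enrichment gave 2 and 5, and a -log10 q of at least 5 gave 16 and 15. On chromosome 11 (16 and 43) they gave 0 and 10, and 5 and 14. The stricter threshold left only 1800 regions to test on chromosome 8 and 2013 on chromosome 11. As shares, its counts were 0.889% and 0.833% on chromosome 8 and 0.248% and 0.695% on chromosome 11. Over all autosomes they were 0.796% and 0.868% of 27894. Without 1 library the counts were 0 to 7 and 0 to 4 on chromosome 8, and 0 to 3 and 0 to 2 on chromosome 11. A lone library left in a group is then assumed to vary like the other. Of the 12 regions named for the largest differences, 9 no longer passed with fold enrichment, 12 without either SOX17FNV library, 7 without SOX2 replicate 1 and 6 without SOX2 replicate 2. Each kept its direction, which is likely after picking large differences. Their log2 differences had sizes of 1.0 to 1.67, and 0.97 to 1.85 without a SOX17FNV library. Without a SOX2 library the sizes were 0.76 to 1.75, and with fold enrichment 0.28 to 1.45.

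The groups share replicate numbers and list-name tags. Same-numbered libraries deviated together, with a correlation of 0.23 over 56427 regions and 0.25 over those of chromosomes 8 and 11. Whether they are pairs is not known. With the replicate number as a block, limma called 140 higher and 99 lower on chromosome 8 (3.78% and 2.67%). On chromosome 11 it was 84 and 112 (2.07% and 2.77%), against 1866 and 1657 over all autosomes (3.31% and 2.94%). Of the 12 regions picked for large differences, 0 lost its call. The block left the differences in strength at 0.040 and 0.014, where a sign-flip permutation of 2 pairs cannot give a p below 0.5.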
